A study of Homo sapiens with 8 samples.

Results

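The 41 genes described here are a fixed list of S phase genes whose products license replication origins, unwind DNA, copy it, supply its nucleotides or assemble chromatin on the new strands. They were taken by name, and all 41 of them are among the 21608 genes with at least 1 splice junction of their own and among the 13487 that were deep enough to test. The cells were HEK293, an established human embryonic kidney line that divides without pause in culture. The control group received DMSO, the solvent, and the treated group received LMI070 (branaplam) at 25 nM, a small molecule that changes pre-mRNA splicing. Total RNA depleted of ribosomal RNA gave 4 libraries per group, replicates 9 to 12 with DMSO and 13 to 16 with LMI070. Lane 7 of the sequencer held DMSO replicates 11 and 12 with LMI070 replicates 13 and 16, and lane 8 held DMSO replicates 9 and 10 with LMI070 replicates 14 and 15, and the sample names carry a different run code for each lane. No allele or transgene is named for either group, and no treatment time is used here. Nothing says that libraries of a group were separate cultures, so each p measures the spread between libraries. The series is about gene therapies switched by drug-induced splicing, and the question asked of these genes was whether the replication machinery is spliced or expressed differently with LMI070.

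The level of a gene is its number of spliced reads, that is, uniquely mapped reads that cross an annotated intron of that gene alone, expressed as CPM after TMM scaling of the library totals. To compare genes with different numbers of introns, the level was also taken per intron of the transcript with the most reads. Uniquely mapped junction reads numbered 20369466 to 36131054 per library. On introns of their own and after TMM scaling, the members together took 0.837% to 0.847% of spliced reads in DMSO libraries and 0.836% to 0.846% in LMI070 libraries. Of 7 genes listed for the HEK293 line, 6 were above 1 CPM in every library, with summed levels of 792 to 838 CPM in DMSO and 796 to 834 CPM in LMI070. VIM made up most of that sum, at 741 to 780 CPM in DMSO and 739 to 775 CPM in LMI070. PAX2, LHX1, EN2 and NES did not exceed 3.82 CPM in any library, so the sum says little about these genes. Blood, epithelial and hepatocyte markers each summed to under 1 CPM in all libraries. Fibroblast markers, 3 of 6 of them above 1 CPM in every library, summed to 24.6 to 31.2 CPM in DMSO and 28.8 to 37.8 CPM in LMI070, and were highest in the LMI070 libraries of lane 7. There COL1A1 alone carried the higher sum (31.7 and 27.5 CPM, log2 fold change 0.52 in lane 7, edgeR adjusted p 0.00337), while COL3A1 (-0.51) and PDGFRA (-0.22) were not called, and the part of these markers in the results was not tested. In bulk RNA, fewer cells in S phase and less RNA per cell cannot be told apart.

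Replication begins at origins bound by the origin recognition complex, where CDC6 and CDT1 load the ring of MCM2 to MCM7 as an inactive helicase. CDC45 and the GINS complex join the ring to form the active helicase, after which DNA polymerase alpha with primase starts each strand, polymerase epsilon extends the leading strand and polymerase delta the lagging strand. PCNA is the sliding clamp that holds polymerases on DNA, the RFC complex loads it, RPA coats single strands, and FEN1 with DNA ligase I joins the lagging-strand fragments. Most of these genes are induced together at the G1 to S transition by E2F transcription factors, which cyclin E and its kinase release from the retinoblastoma protein.

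RefSeq promoter windows on GRCh38.p14 were found for 35 of the members, and their 250 bases before the start were searched on both strands for the E2F words TTTCGCGC, TTTGGCGC, TTTCCCGC and TTTGCCGC. At least 1 word was present for 12 of the 35 members (34.3%), in 12 of their 43 windows (27.9%), against 2.79% of all 35116 windows of the same length. The CCAAT box (CCAAT) was present for 21 of the 35 (60%), against 32% of all windows. The short element TTTGAA, which belongs to the cell cycle genes homology region of G2 and M phase genes, was present for 1 of the 35, against 13.3% of all windows. In the full windows of 300 bases, which run past the start, E2F words were present for 17 of the 35 (48.6%). By window that was 17 of 43 (39.5%), against 3.31% of all windows. A match is a description of these letters and not a binding site. MCM4, MCM5, GINS4, POLD3, RPA2 and CCNE2 had no window. The windows shown are those of 5 members named in the results below, with E2F words in capitals, each on the strand of the gene and ending at the base before the start. Words are more frequent among these 5 than among the 35 members.
MCM6 (chr2:135876444-135876693, minus strand): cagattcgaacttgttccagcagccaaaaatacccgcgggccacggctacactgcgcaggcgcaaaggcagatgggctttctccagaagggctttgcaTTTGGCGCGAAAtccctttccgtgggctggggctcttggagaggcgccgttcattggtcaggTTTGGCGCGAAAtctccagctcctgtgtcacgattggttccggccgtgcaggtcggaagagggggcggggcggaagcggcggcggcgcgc
POLE (chr12:132687343-132687592, minus strand): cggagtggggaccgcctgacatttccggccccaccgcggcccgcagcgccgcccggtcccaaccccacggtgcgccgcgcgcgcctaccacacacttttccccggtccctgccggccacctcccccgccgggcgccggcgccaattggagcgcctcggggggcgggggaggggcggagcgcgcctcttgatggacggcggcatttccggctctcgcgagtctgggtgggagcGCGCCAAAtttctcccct
E2F1 (chr20:33686386-33686635, minus strand): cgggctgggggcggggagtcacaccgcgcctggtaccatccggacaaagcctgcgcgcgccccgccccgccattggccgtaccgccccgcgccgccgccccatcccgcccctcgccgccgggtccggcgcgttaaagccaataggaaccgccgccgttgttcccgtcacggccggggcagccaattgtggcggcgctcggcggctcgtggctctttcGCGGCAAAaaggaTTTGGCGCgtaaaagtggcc
RRM1 (chr11:4094435-4094684, plus strand): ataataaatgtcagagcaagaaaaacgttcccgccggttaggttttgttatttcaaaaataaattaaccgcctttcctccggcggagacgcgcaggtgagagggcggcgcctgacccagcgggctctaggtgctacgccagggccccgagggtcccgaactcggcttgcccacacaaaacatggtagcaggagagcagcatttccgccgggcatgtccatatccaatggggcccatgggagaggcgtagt
CHAF1A (chr19:4402390-4402639, plus strand): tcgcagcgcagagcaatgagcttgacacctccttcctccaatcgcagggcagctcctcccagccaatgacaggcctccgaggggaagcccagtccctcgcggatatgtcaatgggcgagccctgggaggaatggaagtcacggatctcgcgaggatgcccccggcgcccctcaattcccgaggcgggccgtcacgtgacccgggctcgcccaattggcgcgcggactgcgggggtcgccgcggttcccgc
MCM6 held 4 words, at -152, -148, -90 and -86 from the start, as 2 overlapping pairs of one word on each strand. E2F1, itself the transcription factor, held 2 (at -33 and -20), POLE held 1 (at -18), and RRM1 and CHAF1A held none in the 250 bases before the start. MCM7 also held 2 in one of its windows, while RPA1 and POLE2, whose windows are not shown, held none.

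At the gene level the replication machinery of LMI070 cells was close to that of DMSO cells. None of the 41 members passed edgeR's quasi-likelihood test with Benjamini-Hochberg adjustment over all genes, where 0.133% of the 13487 genes were called (0.0222% higher and 0.111% lower with LMI070). DESeq2 called 0 members as well, and 5 members had an unadjusted edgeR p under 0.05, which 10.3% of all genes had. Those 5 were RPA1, POLE and CHAF1A, with fitted values above 0, and POLE2 and RRM1, with fitted values below 0. The fitted log2 fold change was above 0 in 17 members and below 0 in 24, with a median of -0.015, against 0.0036 over all genes. It ranged from -0.14 in POLE2 to 0.18 in RPA1. The median size, sign aside, was 0.047 for members and 0.072 for all genes. The 95% interval of the fold change lay within 0.2 log2 units of 0 (1.149-fold) in 34 members, and within 0.3 (1.231-fold) in 40. The exception was RPA1, whose interval ran from 0.031 to 0.33. Of all 13487 genes, 5106 and 8196 had intervals inside those bounds.

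**Figure D1:**
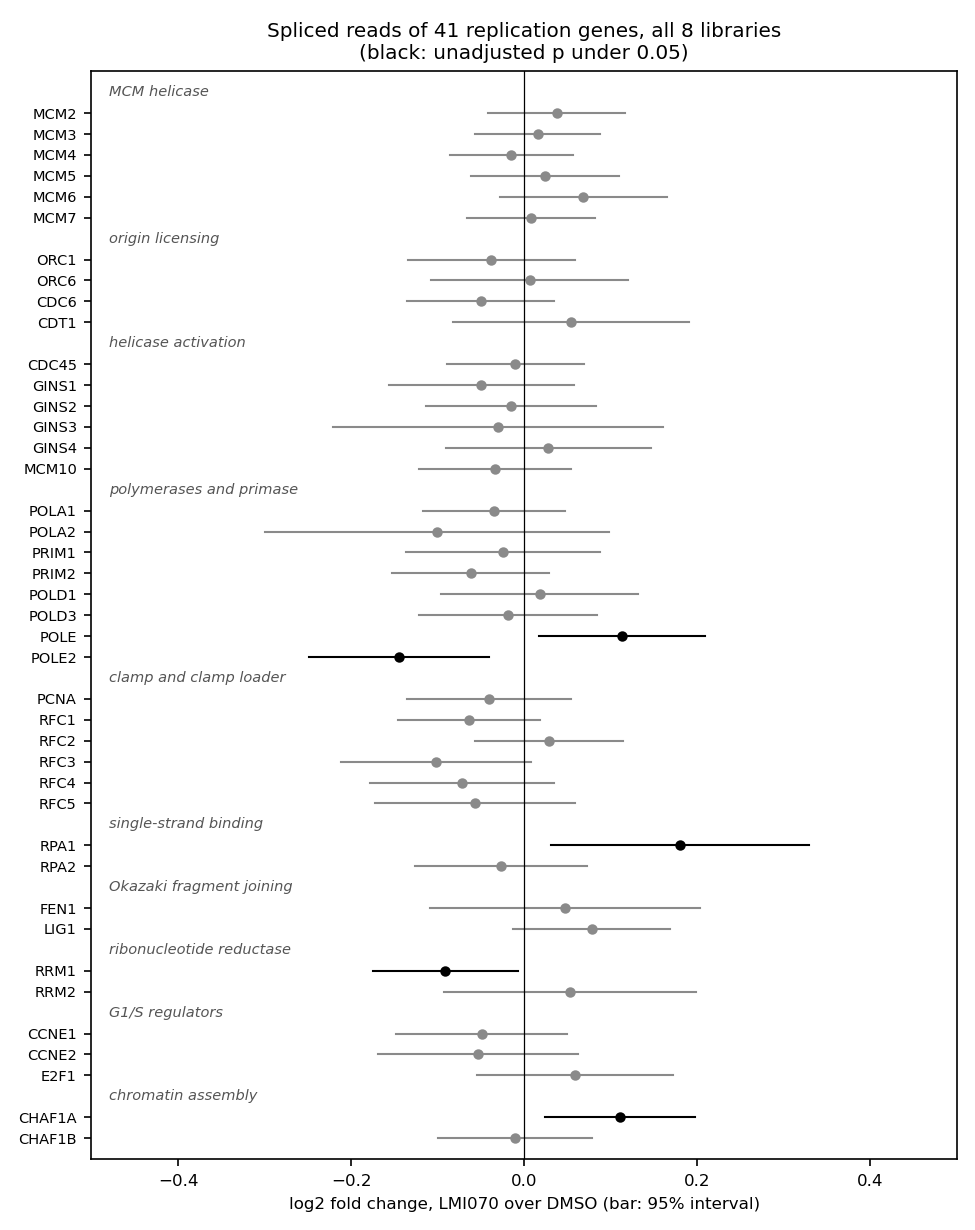
Fitted log2 fold change of each of the 41 members, LMI070 over DMSO, with its 95% interval, grouped by role, from all 8 libraries. Values lie between -0.14 (POLE2) and 0.18 (RPA1), the 5 members with an unadjusted p under 0.05 are in black, and none passed the adjustment over all genes.

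The 6 helicase subunits had a median difference, sign aside, of 0.020 on the log2 scale, the smallest of all roles. MCM7 had the highest level of the 6 per intron, at 61.6 CPM ± 1.91 (SD, n = 4) in DMSO, followed by MCM3 at 43.3 ± 0.808, MCM4 at 32.8 ± 0.382, MCM2 at 25.3 ± 1.05, MCM5 at 21.6 ± 1.05 and MCM6 at 20.2 ± 0.569. MCM5 and MCM6 differed by less than the sum of their SDs, and the other neighbours in that order by more. The ring holds the same number of each protein, but these are RNA levels, which do not measure protein. MCM7 itself had 871, 864, 891 and 827 CPM in DMSO replicates 9 to 12 and 864, 889, 878 and 842 CPM in LMI070 replicates 13 to 16, with groups that overlap fully and a log2 fold change of 0.0081 ± 0.035 (SE). MCM6 had 331, 316, 314 and 329.7 CPM in DMSO and 369.8, 315, 309 and 362 CPM in LMI070. The lane 7 LMI070 libraries, replicates 13 and 16, were above all others, and replicates 14 and 15 were inside or below the DMSO range. The pooled log2 fold change of MCM6 was 0.068 ± 0.046 (edgeR adjusted p 0.624). MCM2, MCM3, MCM4 and MCM5 had log2 fold changes from -0.015 (MCM4) to 0.038 (MCM2), and their intervals all lay within 0.2 of 0.

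Among the licensing factors, CDC6, the loader ATPase, was highest per intron at 17.6 CPM ± 0.435 in DMSO. ORC6 (7.72 ± 0.170) and CDT1 (6.29 ± 0.640), a partner of CDC6 in loading the MCM ring, came next, and ORC1, the ATPase subunit of the origin recognition complex, was lowest (4.51 ± 0.0531). CDC6 had 194, 187, 196 and 198 CPM in DMSO replicates 9 to 12 and 183, 193, 189.9 and 181 CPM in LMI070 replicates 13 to 16. The LMI070 libraries of lane 7 were the lowest of the 8, those of lane 8 were inside the DMSO range, and the log2 fold change was -0.05 ± 0.041 (adjusted p 0.692). The log2 fold change was -0.038 ± 0.046 for ORC1, 0.0062 ± 0.054 for ORC6 and 0.054 ± 0.065 for CDT1.

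The activation factors differed more from each other than between the groups. The GINS complex holds its 4 subunits in equal number as protein, which spliced reads do not measure. In RNA, GINS2 had 28.3 CPM ± 1.26 per intron in DMSO, GINS1 10.1 ± 0.333, GINS4 6.04 ± 0.187 and GINS3 4.04 ± 0.501, each neighbour in that order apart by more than the sum of their SDs. The GINS3 value takes in an intron (58392788 to 58403097) that skips an alternative exon. That intron had 73, 63, 65 and 64 reads in DMSO, against 127, 127, 116 and 99 in the other. CDC45 had 11.01 ± 0.155, with a first intron of 1, 1, 1 and 0 reads in DMSO counted in. MCM10, which helps the helicase to start, had 9.12 ± 0.286. GINS2 had 110.0, 111, 111 and 121 CPM in DMSO and 107, 117, 113 and 110.2 CPM in LMI070. DMSO replicate 12 was the highest library, the groups overlap, and the log2 fold change was -0.015 ± 0.047. For the other 5 genes it ran from -0.05 (GINS1) to 0.028 (GINS4), with the widest interval for GINS3 (-0.22 to 0.16), which had 11.2 CPM ± 1.24 in DMSO.

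The polymerase genes held 2 members with an unadjusted p under 0.05, and they encode subunits of one enzyme. POLE is the catalytic subunit of the leading-strand polymerase epsilon and POLE2 its second subunit. POLE2 had 70.6, 69.6, 70.4 and 75.2 CPM in DMSO replicates 9 to 12 and 61.9, 67.4, 65.2 and 64.2 CPM in LMI070 replicates 13 to 16. All 4 LMI070 libraries were below all 4 DMSO libraries, which was so for no other member, and 4.13% of all genes had groups that do not overlap (1.81% with LMI070 higher and 2.32% with LMI070 lower). Its log2 fold change was -0.14 ± 0.05 (adjusted p 0.338), with -0.20 in lane 7 and -0.08 in lane 8. POLE had 349.7, 355, 365 and 332 CPM in DMSO and 403, 355, 351 and 409 CPM in LMI070. Replicates 13 and 16, from lane 7, stood above every other library, and the lane 8 pair lay within the DMSO range. The pooled value of POLE was 0.11 ± 0.046 (adjusted p 0.406). Per intron, POLE had 7.27 CPM ± 0.284 and POLE2 3.94 ± 0.146 in DMSO, the latter the lowest level of all members and within the spread of GINS3.

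The genes of polymerase alpha and primase, which make the starter strand, lay below 0 in fitted value without passing the test. PRIM2, the large primase subunit, had 105, 101, 101 and 104 CPM in DMSO and 96.2, 97.8, 101 and 97.9 CPM in LMI070, and the highest LMI070 library overlapped the lowest DMSO libraries (-0.062 ± 0.043, adjusted p 0.634). PRIM1, the catalytic primase subunit, was at -0.024 ± 0.054 and POLA1, the catalytic subunit of polymerase alpha, at -0.035 ± 0.039 on the log2 scale. POLA2, the regulatory subunit, had 9.003, 9.66, 10.5 and 9.89 CPM in DMSO and 8.58, 8.82, 10.3 and 8.95 CPM in LMI070 on the introns that belong to it alone, with overlapping groups. These carry 4.34% of its reads, since a readthrough gene, AP000944.2, is annotated over the rest. With shared introns counted for each gene its log2 fold change was 0.026, in place of -0.10. On all introns of its main transcript it was the highest of this role, at 12.6 CPM ± 0.330 per intron. The delta subunit genes POLD1 (0.018) and POLD3 (-0.019) were near 0, with 87.6% of POLD1 reads and 71.7% of PRIM1 reads on introns of their own.

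The clamp gene PCNA had the highest level of all members per intron, at 69.2 CPM ± 2.54 in DMSO. It had 416, 409, 399.5 and 436 CPM in DMSO replicates 9 to 12 and 401, 422, 429 and 364 CPM in LMI070 replicates 13 to 16. LMI070 replicate 16 was the lowest library, the other LMI070 libraries lay inside the DMSO range, and the log2 fold change was -0.041 ± 0.045. The clamp loader genes had like levels, with RFC2 at 16.9 ± 0.198, RFC3 at 15.4 ± 1.15, RFC4 at 14.7 ± 1.12 and RFC5 at 14.6 ± 0.986 CPM per intron, and RFC1, the large subunit, at 11.1 ± 0.354. The levels of RFC3, RFC4 and RFC5 did not differ beyond their spread. RFC3 had 114, 119, 125 and 135 CPM in DMSO and 112, 120.1, 117 and 111 CPM in LMI070 (-0.10 ± 0.052, adjusted p 0.511). RFC4 had 141, 142, 152 and 165 CPM in DMSO and 136, 149, 144 and 141 CPM in LMI070 (-0.072 ± 0.051, adjusted p 0.636). In both genes the DMSO libraries of lane 7 were the highest of the 8 and the groups overlap through the lane 8 libraries. RFC1 had 268, 270.2, 263 and 284 CPM in DMSO and 254, 260.0, 267 and 257 CPM in LMI070, also overlapping, with -0.063 ± 0.039 (adjusted p 0.583). RFC2 (0.029) and RFC5 (-0.057) completed the loader.

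RPA1, the large subunit of the single-strand binding protein, had the highest fitted value of all members. It had 229, 229, 208 and 231 CPM in DMSO replicates 9 to 12 and 302, 217, 218 and 291 CPM in LMI070 replicates 13 to 16. LMI070 replicates 13 and 16 were far above the other 6 libraries, while replicates 14 and 15 lay below 3 of the 4 DMSO libraries. The pooled log2 fold change of 0.18 ± 0.071 did not pass (adjusted p 0.399), and the SD was 45.7 CPM in LMI070 and 11.1 CPM in DMSO. RPA2, its partner, had 129, 135, 140.5 and 129 CPM in DMSO and 123, 137, 137 and 128 CPM in LMI070 with overlapping groups and a log2 fold change of -0.027 ± 0.047. Per intron RPA2 (16.7 CPM ± 0.678) was above RPA1 (14.01 ± 0.688) in DMSO.

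The fragment joining genes were FEN1, the flap nuclease, and LIG1, the ligase. FEN1 has 1 intron in its main transcript. Over all its annotated introns it had 19.6, 22.2, 21.2 and 18.2 CPM in DMSO and 19.1, 23.2, 22.5 and 19.5 CPM in LMI070, and its groups overlap (0.047 ± 0.075). LIG1 had 231, 235, 229.9 and 207 CPM in DMSO and 242, 236, 233 and 242 CPM in LMI070, with DMSO replicate 12 below the rest and the remaining DMSO libraries next to the LMI070 ones (0.078 ± 0.043, adjusted p 0.542). Ribonucleotide reductase makes the deoxynucleotides. Its large subunit gene RRM1 had 757, 779, 807 and 851 CPM in DMSO and 723, 757, 773 and 744 CPM in LMI070. The DMSO libraries of lane 7 were the highest, the lane 8 libraries of both groups lay together, and the log2 fold change was -0.091 ± 0.04 (adjusted p 0.453). RRM2, the small subunit, was at 0.053 ± 0.069 on its own introns, which carry 13.9% of its reads because AC007240.1 overlaps it, and at 0.031 with shared introns counted.

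Of the regulators of S phase entry, E2F1 had 51.7, 54.0, 53.5 and 46.8 CPM in DMSO and 51.5, 56.0, 55.2 and 52.1 CPM in LMI070, with overlapping groups and a log2 fold change of 0.059 ± 0.054. The cyclin E genes CCNE1 (-0.049 ± 0.047) and CCNE2 (-0.054 ± 0.055) had fitted values on the other side of 0. CHAF1A, the large subunit of the chromatin assembly factor that deposits histones behind the fork, had 171, 162, 158 and 148 CPM in DMSO replicates 9 to 12 and 170.3, 176, 177 and 166 CPM in LMI070 replicates 13 to 16. The groups overlap at DMSO replicate 9, and the log2 fold change was 0.11 ± 0.041 (adjusted p 0.370), with 0.14 in lane 7 and 0.086 in lane 8. CHAF1B, its partner, was at -0.011 ± 0.042.

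**Figure D2:**
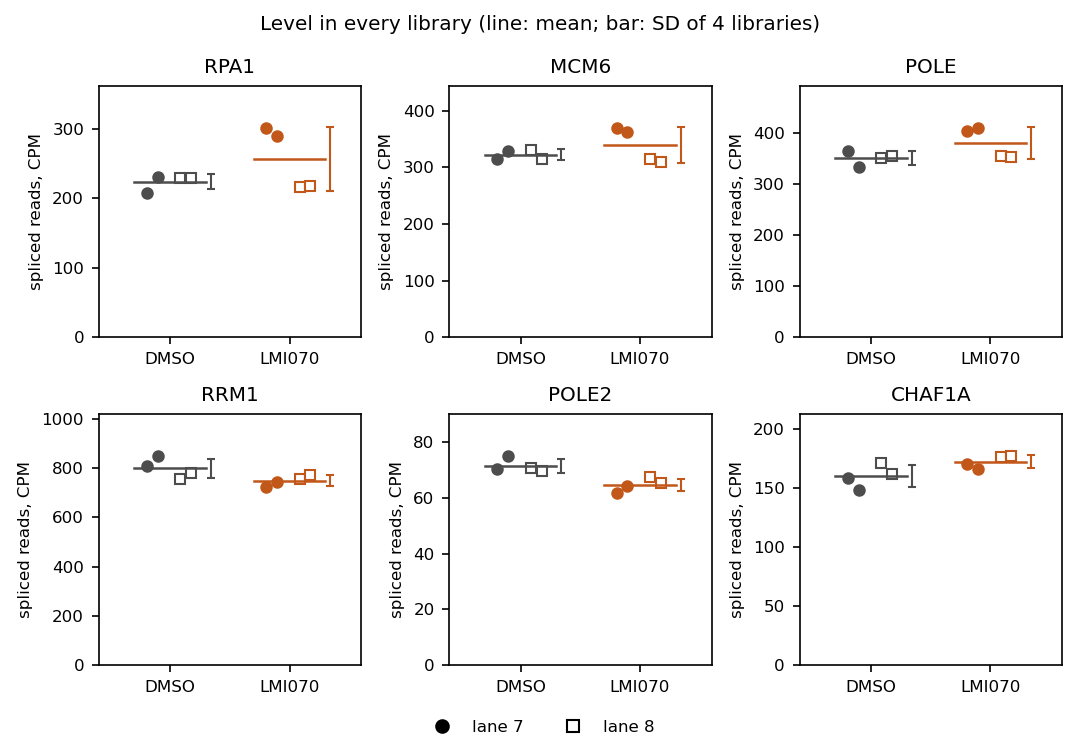
Spliced reads (CPM, axis from 0) in each of the 8 libraries for the 5 members with an unadjusted p under 0.05 and for MCM6. Filled circles are lane 7 and open squares lane 8, lines are group means and bars the SD of 4 libraries. In RPA1, MCM6 and POLE the LMI070 libraries of lane 7 lie above all others, and in POLE2 all LMI070 libraries lie below all DMSO libraries.

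The lanes gave different answers for part of the machinery, so each was read apart. The test of the difference itself, an interaction of treatment with lane, called 2 of the 41 members, RPA1 and MCM6, where 2.85% of all genes were called (2.5% with the change higher in lane 7). Without adjustment 10 members had an interaction p under 0.05, which 14.8% of all genes had. For RPA1 the log2 fold change was 0.44 ± 0.066 in lane 7 (adjusted p 0.000130) and -0.076 ± 0.033 in lane 8 (adjusted p 0.602), a difference of -0.51 ± 0.072 (lane 8 minus lane 7, adjusted p 7.77e-05). All 16 introns of RPA1 had more reads with LMI070 in lane 7, by 0.20 to 0.61 log2 units, and 14 of the 16 had fewer in lane 8. For MCM6 it was 0.19 ± 0.061 in lane 7 (adjusted p 0.0814) and -0.049 ± 0.029 in lane 8, a difference of -0.24 ± 0.065 (adjusted p 0.0443). All 16 introns of MCM6 were higher with LMI070 in lane 7 and 11 of 16 lower in lane 8. The RPA1 call held without any single library, at adjusted p values up to 0.00302. The MCM6 call did not hold without DMSO replicate 9 (adjusted p 0.365) or 10 (0.116), or without LMI070 replicate 13 (0.165), 14 (0.180), 15 (0.303) or 16 (0.0952).

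In lane 7 alone, RPA1 and POLE were called higher among the members, with 4.12% of 13512 genes called (3.49% higher and 0.629% lower), and 9 members at an unadjusted p under 0.05, as were 17.3% of all genes. In lane 8 alone no member was called by edgeR, with 0.375% of 13587 genes called (0.081% higher and 0.294% lower) and 5 members at an unadjusted p under 0.05, where 6.33% of all genes were. POLE was at 0.22 ± 0.063 in lane 7 (adjusted p 0.0410) and 0.0039 ± 0.028 in lane 8, but the difference between lanes did not pass (-0.22 ± 0.066, adjusted p 0.0805). In POLE 44 of 48 introns were higher with LMI070 in lane 7 and 23 of 48 in lane 8. No clamp loader gene was called in a lane or by the interaction. RFC3, RFC4 and RFC5 had log2 fold changes of -0.23, -0.19 and -0.19 in lane 7 (adjusted p 0.0703, 0.124 and 0.155) and 0.027, 0.054 and 0.08 in lane 8. Their differences between lanes had adjusted p values of 0.0886, 0.0820 and 0.0837. RFC1 was at -0.094 and -0.03, and RFC2 at -0.025 and 0.086, in lanes 7 and 8. Every intron of RFC3, RFC4 and RFC5 (8, 10 and 10) had fewer reads with LMI070 in lane 7. RRM1 was at -0.17 in lane 7 (adjusted p 0.0928), where all 18 introns were lower, and at -0.0058 in lane 8. By median, the 6 clamp and loader genes were at -0.16 in lane 7 and 0.050 in lane 8.

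In all, 14 members were above 0 in lane 7 and 25 in lane 8, where 6806 and 6789 of all 13487 genes were. The fold change in lane 7 was below that in lane 8 in 29 of 41 members, and the same count over all genes was not taken. The medians of the members were -0.026 in lane 7 and 0.0096 in lane 8, against 0.0036 and 0.0011 over all genes. The 95% interval lay within 0.2 of 0 in 38 members in lane 8 and in 12 in lane 7, where the libraries of a group also differed more (chi-square per degree of freedom over genes of 6.83 and 3.70 in lane 7 against 1.94 and 1.89 in lane 8, for DMSO and LMI070). The lane cannot be told apart from anything else that differed between the 4 libraries of lane 7 and the 4 of lane 8.

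**Figure D3:**
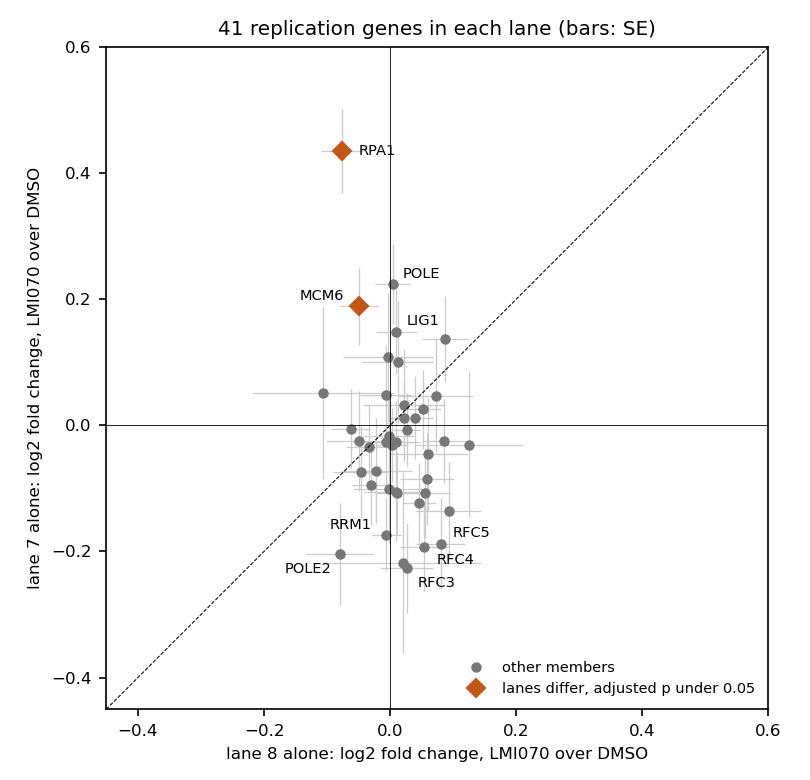
Log2 fold change of the 41 members, LMI070 over DMSO, in lane 8 alone (x axis) and lane 7 alone (y axis), with SE bars and the line of equal values dashed. RPA1 and MCM6 (diamonds) differed between lanes at an adjusted p under 0.05, and all members lie within 0.2 of 0 on the lane 8 axis.

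**Figure D4:**
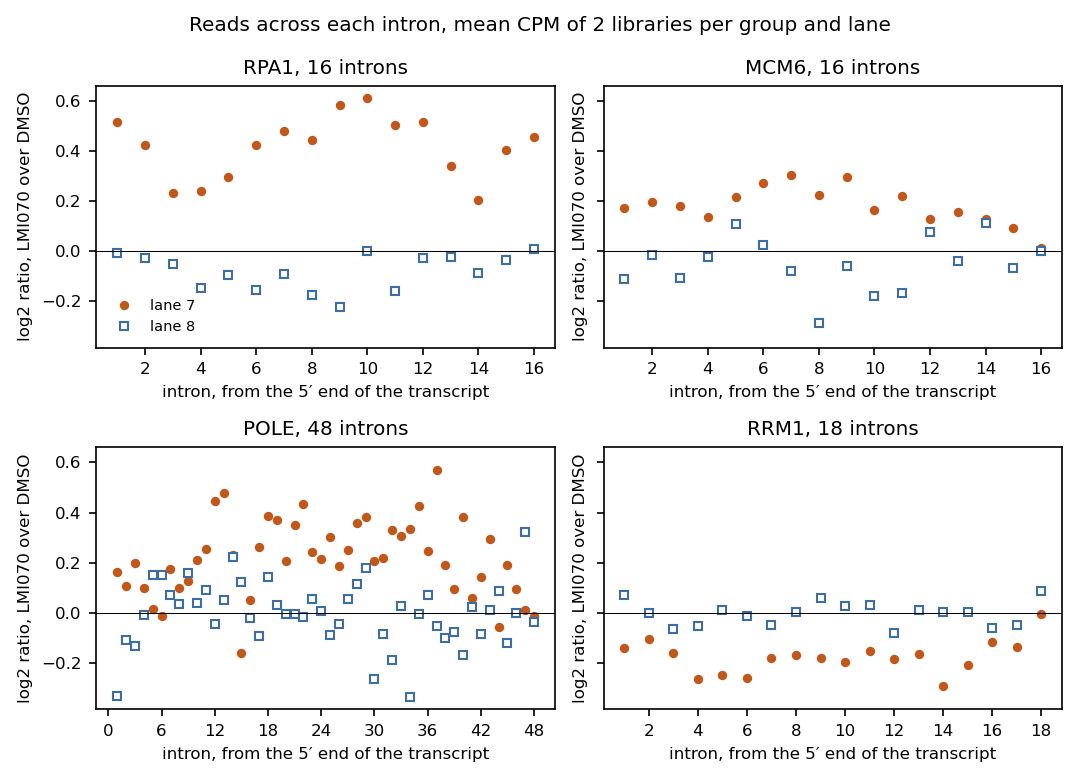
Log2 ratio of LMI070 over DMSO reads for each intron of RPA1, MCM6, POLE and RRM1, in order from the 5′ end, with lane 7 as filled circles and lane 8 as open squares, each the ratio of mean CPM of 2 libraries per group with 0.05 CPM added. Lane 7 points lie above 0 along the whole of RPA1 and MCM6 and below 0 along RRM1, and lane 8 points scatter on both sides of 0 or, in RPA1, mostly below it.

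Alternative exons were the next question, since LMI070 acts on splicing. Cassette exons with enough reads were found in 34 of the members, 216 in all, some of them forms that share a splice site. A call needed both an adjusted p under 0.05 and inclusion 10 or more percentage points apart, and edgeR made none, against 0.14% of 39425 exons, and none passed without the minimum change, against 0.327%. DESeq2 called 0 of them, and 9 had an unadjusted edgeR p under 0.05, where 5.18% of all exons had. Most of these exons were nearly always in or nearly always out. In DMSO, 109 of the 216 were included above 95%, 72 below 5% and 14 between 10% and 90%. The groups did not overlap for 7 of the 216 (3.24%), against 3.46% of all exons.

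The largest difference among exons with an unadjusted p under 0.05 was in GINS3. Its 117-nt exon (chromosome 16, 58395102 to 58395218) was included at 15.1, 20.3, 17.7 and 15.8% in DMSO replicates 9 to 12 and 13.1, 8.54, 14.04 and 4.67% in LMI070 replicates 13 to 16. Every LMI070 library was below every DMSO library, at 17.2% ± 2.30 against 10.1% ± 4.34 (SD, n = 4), on 55 inclusion and 265 skipping reads in DMSO and 30.5 and 261 in LMI070 (adjusted p 0.895, so not a call). Inclusion reads are the mean of the exon's flanking junctions. CHAF1A held the smallest p values. Inclusion of its 57-nt exon (chromosome 19, 4418020 to 4418076) reached 96.0, 95.4, 93.8 and 96.3% with DMSO and 98.0, 96.8, 96.6 and 97.2% with LMI070, with groups apart (95.4% ± 1.11 against 97.2% ± 0.607, adjusted p 0.782). A 113-nt form with the same 3′ splice site and the same skipping reads, ending at 4418132, was at 91.2% ± 1.94 and 94.5% ± 1.16, also apart (adjusted p 0.759). A 51-nt CHAF1A exon (4405912 to 4405962) was at 96.1% ± 2.05 and 98.2% ± 1.09. The 120-nt POLE exon from 132675398 to 132675517 on chromosome 12 was at 95.8% ± 1.17 and 97.9% ± 0.793. On the other side, the 90-nt LIG1 exon from 48162262 to 48162351 on chromosome 19 was at 94.5% ± 1.55 and 92.2% ± 1.53. The 133-nt CHAF1B exon (chromosome 21, 36387598 to 36387730) and the 88-nt POLA1 exon (chromosome X, 24716884 to 24716971) differed by -0.754 and 1.26 points. The groups overlap for these last 5 exons, and all 8 missed the adjusted threshold.

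Exons used at an intermediate level showed the precision that these reads allow. A 234-nt GINS3 exon (chromosome 16, 58403098 to 58403331) had an inclusion of 67.7% ± 4.07 with DMSO against 67.8% ± 3.73 with LMI070. The 37-nt CDC45 exon from 19482791 to 19482827 on chromosome 22 was at 78.4% ± 1.84 and 78.1% ± 3.27, and a CCNE1 exon of 47 nt (chromosome 19, 29812532 to 29812578) at 79.1% ± 5.83 and 85.2% ± 7.26. An 82-nt LIG1 exon (chromosome 19, 48133981 to 48134062) was at 83.3% ± 2.30 and 85.3% ± 2.73, and a 37-nt RFC2 exon (chromosome 7, 74246662 to 74246698) at 85.7% ± 3.72 and 84.1% ± 2.29. These were chosen after their values were seen, as exons between 10% and 90%, and the largest mean difference among the 14 was that of the 117-nt GINS3 exon (-7.13 points, LMI070 minus DMSO).

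**Figure D5:**
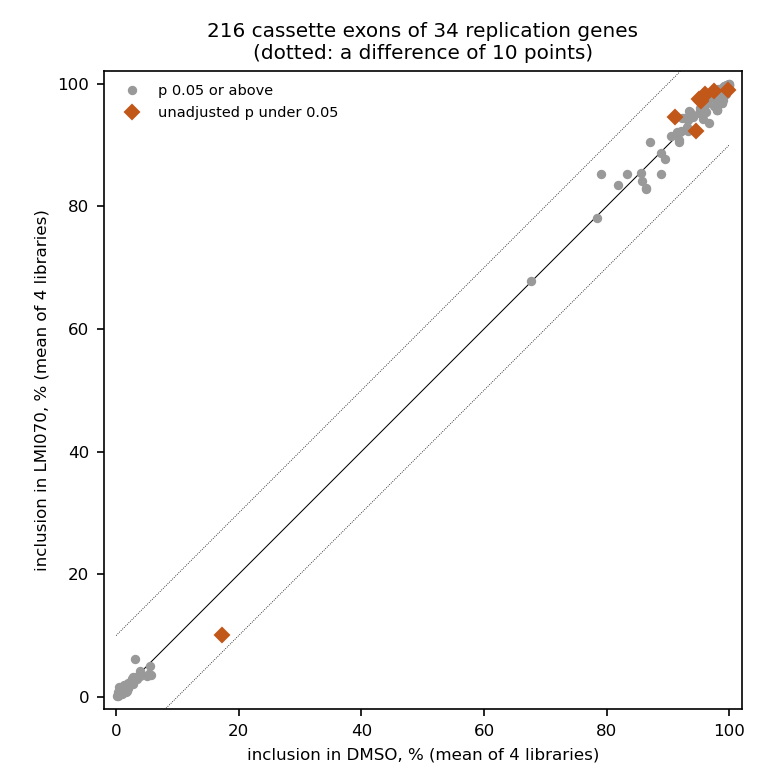
Inclusion of the 216 cassette exons of members in DMSO (x axis, %) and LMI070 (y axis, %), each the mean of 4 libraries, with the line of equal values and dotted lines 10 points away. All exons lie inside the dotted lines, most of them near 0% or 100%, and the exon furthest from the diagonal is the GINS3 exon at 17.2% and 10.1%.

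Usage of single junctions, taken as a percentage of the reads at either of its splice sites, gave the same count. All 41 members had junctions tested, 658 in all with 90 unannotated, and 0 were called by edgeR, against 0.0664% of 129495 junctions with the minimum change and 0.144% without it. At an unadjusted p under 0.05 there were 18, where 3.1% of all junctions passed. No member junction differed by 10 points or more. The 8 with the smallest p had an adjusted p of 0.977, and 7 of the 8 differed by under 3 points. The exception was the GINS3 junction into its 117-nt exon (58392788 to 58395101), at 11.4% ± 2.13 in DMSO and 5.98% ± 2.09 in LMI070, on 58 and 30 reads. The smallest p belonged to an MCM7 junction on chromosome 7 (100097949 to 100098140), at 100, 100, 99.94 and 100% in DMSO and 99.87, 99.83, 99.77 and 99.78% in LMI070. Its groups do not overlap, and the difference rests on 1 and 12 reads at competing sites. Junctions of POLE (132672840 to 132673163 and 132668503 to 132668634) had 6 and 5 competing reads in DMSO and none in LMI070. Another POLE junction (132675518 to 132675734), at the 120-nt exon, went from 96.2% ± 1.24 in DMSO to 98.2% ± 0.666 in LMI070. Of the rest, the POLA1 junction from 24821584 to 24826426 was at 99.0% ± 1.23 and 96.7% ± 1.02, the CHAF1B junction from 36387731 to 36391550 at 99.6% ± 0.382 and 98.6% ± 0.661, and the CHAF1A junction from 4402815 to 4408902 at 1.98% ± 1.05 and 0.871% ± 0.536. All of these overlap between groups except those of MCM7 and GINS3. Among all 129495 junctions tested, 2.45% had groups that do not overlap. The 8 junctions above were picked for small p, so they cannot be set against that share. The same count over the 658 member junctions is not given.

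Junctions that are not in the annotation would show new exons or cryptic sites. Members had 1272 such junctions with at least 1 read, beside 715 annotated ones, and 549 of the 1272 were single reads. Those read in one group alone numbered 343 in DMSO, with at most 6 reads, and 387 in LMI070, with at most 8. These counts were not scaled for depth, which was greatest in LMI070 replicate 13, and are not given over all genes. No junction had 10 or more reads in 1 group and 0 in the other. The deepest seen in LMI070 alone was an MCM7 junction on chromosome 7 (100099177 to 100099278) with 4, 0, 1 and 3 reads in replicates 13 to 16. Together they made up 0.517, 0.476, 0.478 and 0.508% of member junction reads in DMSO replicates 9 to 12 and 0.502, 0.475, 0.493 and 0.510% in LMI070 replicates 13 to 16, ranges that overlap. For all genes the share lay between 0.696% and 0.705% with DMSO and between 0.712% and 0.728% with LMI070, without overlap. A test of that share per gene was possible for 21 members, and 0 were called by edgeR or DESeq2, with 0 at an unadjusted edgeR p under 0.05. Of the 2924 genes tested, 0.718% were called and 7.15% had an unadjusted p under 0.05. The smallest p, 0.0684, was that of MCM7, at 0.125% ± 0.0270 and 0.166% ± 0.0399. Of the 40 members with an unannotated read, GINS1 had the highest share (4.85% of summed reads in DMSO and 4.65% in LMI070) and RRM1 the lowest in DMSO (0.0960% there and 0.0940% in LMI070, next to CDT1).

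The 8 most used unannotated junctions were read in both groups. A GINS1 junction (chromosome 20, 25407896 to 25425210) had 20, 17, 18 and 20 reads in DMSO and 27, 7, 12 and 16 in LMI070. An MCM7 junction (chromosome 7, 100098291 to 100098566) had 16, 14, 16 and 9 against 25, 14, 16 and 18. In both, the LMI070 library with most reads was replicate 13, the deepest library. Summed over each group, the others had 56 and 59 reads (POLA1, from 24699550 to 24704388), 57 and 54 (MCM3, from 52281675 to 52282044), 40 and 68 (CHAF1A, from 4429607 to 4429710), 47 and 61 (CDC45, from 19516646 to 19516813), 48 and 58 (POLA1, from 24743330 to 24748310) and 48 and 37 (CCNE1, from 29812153 to 29812688), in DMSO and LMI070. None passed the junction test.

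Other work has shown that LMI070 strengthens the pairing of U1 with 5′ splice sites that follow a final GA of the exon. Among the 5′ splice sites of members with sequence, 15 of 572 (2.62%) followed an exon ending in GA and 8 (1.40%) one ending in AGA, against 1.61% and 0.748% of 140025 sites in all genes tested. The last 30 bases of 6 of these exons are shown from GENCODE 29 transcripts on GRCh38, on the strand of the gene, with the final GA in capitals, because they carry the sequence feature through which the compound is known to act.
CHAF1A (chr19, exon end 4409759): cccttccccacctccacgcccctccgcaGA
CHAF1A (chr19, exon end 4418076): acagagaagaacaagctcagactgcaaaGA
PRIM1 (chr12, exon end 56751038): attgatataggcgcagtatattctcacaGA
PRIM2 (chr6, exon end 57320560): gagcttcggaagctcaagttttcctacaGA
RFC4 (chr3, exon end 186794658): tcaattaactgtgtcaggaagtcgctcaGA
POLD1 (chr19, exon end 50402124): tgctggctgtggaactgtgctcccgagaGA
All 6 end in AGA, as do 8 of the 15. The main junction from the first CHAF1A site had 89.2% ± 0.297 of usage in DMSO and 91.9% ± 0.631 in LMI070 (edgeR adjusted p 0.977), and that from the second, the end of the 57-nt exon above, 94.7% ± 1.75 and 96.3% ± 0.838. The PRIM1 site ends a 158-nt exon (56751038 to 56751195) that was included at 94.3, 95.3, 96.5 and 96.5% in DMSO and 97.1, 96.7, 97.1 and 97.6% in LMI070. Its groups do not overlap, but its adjusted p was 0.997. The junctions of PRIM2 (99.4% ± 0.871 and 99.0% ± 0.719), RFC4 (99.5% ± 0.601 and 99.6% ± 0.153) and POLD1 (98.9% ± 1.32 and 97.5% ± 3.18) were near full use in both groups. Over the 16 junctions of 11 members that leave such exons, the largest difference was in GINS4, at 81.7% ± 3.98 in DMSO and 76.4% ± 2.67 in LMI070 (adjusted p 0.977). None was called.

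Around the members, 89 further genes of the same processes were read as lists, and none of these 89 was called over both lanes by edgeR or DESeq2. Of the 89, 11 had an unadjusted edgeR p under 0.05 (4 above 0 and 7 below 0), where 10.3% of all genes had. The median log2 fold change of the 89 was -0.025. With no filter on low counts edgeR called 265 of up to 21608 genes over both lanes. Among them were 4 of the 89, all higher with LMI070: TYMS (adjusted p 3.12e-08), MKI67 (0.00958), TIMELESS (0.0141) and PLK1 (0.0303). In that order, their log2 fold changes were 0.86, 0.40, 0.36 and 0.36 in lane 7 alone. In lane 8 alone they were -0.14, -0.026, -0.026 and -0.0089. Of 31 other replisome and origin genes 1 had an unadjusted p under 0.05 above 0 and 5 below 0, with a median of -0.042. Of 7 nucleotide supply genes, 23 other G1/S regulators, 8 replication-coupled chromatin genes and 20 G2 and M phase genes, 1, 0, 1 and 3 had an unadjusted p under 0.05. The smallest p belonged to POLE4, a small subunit of polymerase epsilon beside POLE and POLE2, which had 40.2, 39.0, 43.4 and 40.6 CPM in DMSO replicates 9 to 12 and 34.1, 38.6, 36.4 and 33.3 CPM in LMI070 replicates 13 to 16. All its LMI070 libraries were below all DMSO libraries, and the log2 fold change was -0.20 ± 0.062 (edgeR adjusted p 0.316). It was -0.31 in lane 7 and -0.076 in lane 8. POLE3, another subunit of the same enzyme, lay on the other side of 0, at 0.11 ± 0.064 (edgeR adjusted p 0.572). ORC4, a subunit of the origin recognition complex, had 103, 111, 109 and 122 CPM in DMSO and 96.8, 101, 102.5 and 101 CPM in LMI070, again without overlap (-0.15 ± 0.05, adjusted p 0.336). Its log2 fold change was -0.22 in lane 7 and -0.08 in lane 8. Groups did not overlap for 5 of the 89 with LMI070 lower and 2 with LMI070 higher, against 2.32% and 1.81% of all genes. In splicing, 429 exons and 1356 junctions were tested in the 89 genes. None had an adjusted edgeR p under 0.05, and DESeq2 called 0 of the exons. At an unadjusted edgeR p under 0.05 there were 27 exons and 42 junctions, against 5.18% of all exons and 3.1% of all junctions. The share of unannotated reads was tested for 40 of the 89 genes, with 0 called by edgeR or DESeq2. Of the 40, 4 had an unadjusted edgeR p under 0.05, against 7.15% of all genes tested for that share.

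The lists also held genes that differed by lane. In lane 7 alone 6 of the 89 were called by edgeR, 4 higher and 2 lower, where 3.49% of all genes were called higher and 0.629% lower, and in lane 8 alone none was. The interaction with lane called 5 of the 89, where 2.85% of all genes were called, and these 5 were among the 6. The remaining gene was RPA3, the small subunit of replication protein A, with 71.8, 74.3, 74.1 and 80.5 CPM in DMSO and 62.6, 70.3, 76.0 and 63.6 CPM in LMI070 (-0.29 in lane 7, adjusted p 0.0359, and -0.0018 in lane 8, with 0.0966 for the difference). TYMS, thymidylate synthase, had 64.9, 68.4, 61.4 and 62.0 CPM in DMSO and 109, 61.1, 60.1 and 115 CPM in LMI070, so that both lane 7 LMI070 libraries were far above the other 6. Its log2 fold change was 0.86 in lane 7 and -0.14 in lane 8 (difference -0.997 ± 0.089, adjusted p 5.23e-08). TIMELESS, a fork protection gene, was at 0.36 and -0.026 (adjusted p of the difference 0.00156), the proliferation marker MKI67 at 0.40 and -0.026 (0.00202), the mitotic kinase PLK1 at 0.36 and -0.0089 (0.0116), and CDK1, the mitotic cyclin-dependent kinase, at -0.29 and 0.025 (0.00931), in lanes 7 and 8. Leaving out each library in turn, the calls of TYMS and MKI67 held. That of TIMELESS was lost without DMSO replicate 10 (adjusted p 0.0549), that of CDK1 without DMSO replicate 9 or 10 or LMI070 replicate 13 or 15 (up to 0.108), and that of PLK1 without DMSO replicate 9 or 10 or LMI070 replicate 13, 14 or 15 (up to 0.127).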

How the data were processed

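Splice junction tables of 8 libraries (4 DMSO, 4 LMI070) were read. Per the submitters' processing notes, reads were aligned with STAR 2.6.0c to GRCh38, and the authors deposited whole-number counts of uniquely and multiply mapped reads per junction. Uniquely mapped reads of junctions matching GENCODE 29 introns of 1 gene were summed per gene and tested with edgeR 4.0.16 (quasi-likelihood, filterByExpr, TMM, lane and treatment) in R 4.3.3, with Benjamini-Hochberg adjustment over all genes. Cassette exons (3 to 500 nt), junctions and unannotated shares were tested as paired counts with a term per library. They needed at least 10 reads per library, and exons and junctions were called at an adjusted p under 0.05 and 10 percentage points. The steps were tested on simulated data. Alternatives were DESeq2 1.42.0, other scalings, filters, multiply mapped or shared reads, lanes apart and libraries left out. Members and lists were chosen with earlier results of these data known. Every member is reported, and 1 gene of the surrounding lists is not reported here, so that counts over those lists leave it out. Values in each library are given for the 12 smallest p values, the highest gene of each role and those called by lane, with 8 each of exons, junctions and unannotated junctions. Promoters came from RefSeq (GRCh38.p14). All sample columns were used.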

Additional observations from a re-analysis of the deposited data

Results flagged for a closer look

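Among 4 libraries of a group, one value lay far from the other 3 in 6 of 108 groups examined, where chance flags about 1 in 20. MCM2 in DMSO replicate 12 was at 356 CPM, below the rest of its group. In the same library GINS2 (121 CPM) and POLA1 (302 CPM) were above theirs. GINS3 was highest in DMSO replicate 9, at 13.1 CPM. RPA1 was lowest in DMSO replicate 11, at 208 CPM, and that library belongs to lane 7, where RPA1 was called. Without it the difference of RPA1 between lanes was -0.43 (edgeR adjusted p 1.38e-06). The CHAF1B exon from 36387598 to 36387730 was at 99.1% in DMSO replicate 10 and at 100% in the other DMSO libraries.

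The effect of LMI070 differed between lanes, by the test of the interaction, for 7 of the members and listed genes around them, where 385 of all genes (2.85%) were called. The differences (lane 8 minus lane 7, log2) were -0.51 for RPA1 and -0.24 for MCM6 among the members. Around them they were -0.997 for TYMS, -0.423 for MKI67, -0.384 for TIMELESS, -0.372 for PLK1 and 0.321 for CDK1. CDK1 was the 1 of these 7 with a lower value in lane 7. When single libraries were left out, the calls of MCM6, TIMELESS, CDK1 and PLK1 were each lost at least once.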

How the results depend on the processing

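The count of members called at the gene level was 0 in every alternative but 2, with 2 (RPA1 and POLE) in lane 7 alone and 1 (RPA1, adjusted p 0.00731) with no filter on low counts. Members called by lane numbered 2, and 1 to 9 when each library was left out. The 9 came without DMSO replicate 11 (LIG1, MCM6, PCNA, POLE, RFC3, RFC4, RFC5, RPA1 and RRM1), when 1597 of all genes were called. The count was 7 without DMSO replicate 12 and LMI070 replicate 16, 4 with no filter (897 and 543 of all genes, against 385), and 1 with unannotated junctions added or with shared introns counted for each gene. The cause was not tested. In lane 8 alone the log2 fold change had the other sign for 16 of 41 members, among them RPA1 (-0.076), MCM6 (-0.049), RFC3 (0.027), RFC4 (0.054) and CDC6 (0.011). In lane 7 alone the sign was the other for 5 members, and neither count is given over all genes. Exons, junctions and unannotated shares of members gave 0 calls in every alternative run. Over all genes, leaving out each library gave 12 to 20 gene-level calls DESeq2 36 and no filter 265, against 18. No paired analysis was possible because DMSO libraries carry the numbers 9 to 12 and LMI070 libraries 13 to 16. The GINS3 exon rests on 55 inclusion reads in DMSO and 30.5 in LMI070, and 2 libraries per group and lane limit every value within a lane.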
